A study of Arabidopsis thaliana with 30 samples.

Results

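Among 30 Affymetrix ATH1 arrays of Arabidopsis thaliana root tissue (accession Col-0), 7 carry the comparison described here. They are the 3 arrays of a stump labelled 8 days post germination (dpg), called the 8 dpg stump, set against the 4 arrays of the stump taken at once after excision in 4 dpg seedlings, called the 0 h stump. Arrays were assigned to the groups by their titles alone. The stump is the 70 µm of root next to a cut that removes the distal 130 µm. Titles print these lengths in mm, and the protocol, followed here, in µm. The other groups used are the 8 dpg tip (3 arrays), the 4 dpg tip (4), a root section from 270 to 340 µm taken at once (3), and the stump at 5 h (4), 13 h (4) and 22 h (5) after excision in 4 dpg seedlings. Both tips are the excised distal 130 µm of uncut roots. The titles of the section arrays state no age. All groups have the genotype Col-0 and were grown on agar under long days. A replicate is a pool of at least 25 pieces, from which 50 ng of total RNA was amplified. Separate sowings are not stated, so the p-values cover the spread between arrays only, and in pooled tissue fewer cells of a type and less RNA per cell cannot be told apart.

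The labels do not agree on what the 8 dpg stump is. The title has it recut 0 h after the first cut. The source name has it harvested 192 h after that cut. An age of 8 dpg is itself 192 h, and a seedling first cut at 4 dpg is only 96 h past the cut at 8 dpg. The shared protocol text describes growth for 4 days and does not mention older seedlings. The values below therefore describe the state of the tissue on the arrays, and the time since the first cut cannot be told from the labels.

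The growing tip of a root holds the cap, the quiescent centre and the stem cells around it. Behind them lie dividing cells, and further from the tip cells stop dividing, elongate and replicate their DNA without mitosis. When the distal end is cut away, the stump at first lacks cap and niche, and it can rebuild both. Cap and meristem transcripts, and transcripts of elongating cells, thus tell where along this course a piece of tissue lies.

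Each array gave a signal for 22746 probe sets. Median signals were 77.9 to 83.4 on the 8 dpg stump arrays and 74.3 to 141.8 on the 0 h stump arrays, and the 2 highest of these, 142 and 121, came from 0 h arrays 1 and 2. Replicates of the 8 dpg stump resembled each other closely, with Pearson correlations of log2 values over probe sets of 0.969 to 0.976, while those of the 0 h stump spread from 0.793 to 0.929. Of 42 marker genes in 7 cell type lists, 5 had a probe set with a usable name, so the tissue was placed mainly by its likeness to other groups. The niche marker BBM was present in the 8 dpg stump, as given below. The cap marker CR4 (ACR4, a receptor kinase) had signals of 39.5, 36.8 and 88.6 in the 8 dpg stump and 18.6, 11.6, 5.9 and 82.5 in the 0 h stump, with overlap. The root hair expansin genes EXPA7 and EXPA18 did not exceed 71.4 in the 8 dpg stump. By the rule given below neither differed from the 0 h stump (log2 differences of -1.03 and -0.05, adjusted p = 0.345 and 0.967) or from the section. They thus do not set the 8 dpg stump apart. No marker of xylem, phloem or shoot had a named probe set.

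In the 8 dpg stump, many transcripts that are abundant in the root tip stood well above the 0 h stump, and many that are abundant in the section stood well below it. Differences are on the log2(signal + 32) scale, 8 dpg stump minus the other group, with the standard error after the sign ±. The scale understates changes of dim genes. A probe set counted as risen or fallen at an adjusted p under 0.05 with an absolute difference of at least 1. By this rule 1547 of 22746 probe sets, 6.80%, differed between the 8 dpg stump and the 0 h stump. Of these, 828 (3.64%) rose and 719 (3.16%) fell, and a single gene name was available for 828 of the 1547. Centring every array on its median gave 1298 risen and 385 fallen, because it moved the median difference over all probe sets from -0.17 to 0.09. The count was 974 without the second 8 dpg stump array, 1006 without the third, 663 in a fit of these 7 arrays alone and 4641 with only 0 h arrays 1 and 2 as the reference. That last setting gave 1622 risen and 3019 fallen, and leaving out 0 h array 3 gave 1024 and 1282, so which direction holds more calls depends on the 0 h arrays used.

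The gene with the largest rise was AT1G50060, which encodes a protein of the pathogenesis-related 1 family. Its signals were 10524, 8187 and 9585 in the 8 dpg stump, against 213, 9.2, 19.5 and 5.7 in the 0 h stump. The groups lay far apart, with a single 0 h array above the others. The difference was 7.14 ± 0.58 (adjusted p = 1.86e-10). AT3G19430, annotated as related to late embryogenesis abundant (LEA) proteins, had 7118, 6967 and 7032 in the 8 dpg stump and 74, 117, 6.2 and 81.9 in the 0 h stump. The 3 stump arrays of 8 dpg agreed closely and no 0 h array came near them. This difference was 6.28 ± 0.49 (adjusted p = 8.36e-11).

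AT1G65570 encodes a polygalacturonase, a class of enzyme that cuts pectin, and is known from the root cap. Its signals were 2882, 4137 and 3077 in the 8 dpg stump, against 36, 53.1, 9.4 and 54.5 in the 0 h stump. The difference was 5.64 ± 0.42 (adjusted p = 2.48e-11). No 0 h stump array came near any 8 dpg stump array. The metallothionein gene MT1C (AT1G07610), for a small metal-binding protein, had 4044, 4939 and 4939 in the 8 dpg stump and 33.8, 183, 104 and 23.3 in the 0 h stump, a difference of 5.52 ± 0.81 (adjusted p = 1.31e-05). The groups did not overlap.

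Genes of the Aux/IAA and GH3 families stood among the highest rises. IAA33 (AT5G57420) encodes a member of the Aux/IAA family of transcriptional regulators. It had signals of 1023, 1016 and 812 in the 8 dpg stump, against 11.1, 13.8, 33 and 9 in the 0 h stump. It was thus bright on every 8 dpg stump array and dim on every 0 h array, with a difference of 4.35 ± 0.32 (adjusted p = 2.48e-11). The GH3 family, whose known members join amino acids to hormones such as auxin, contributed AT1G23160 and AT5G51470. AT1G23160 had 1561, 1689 and 2130 in the 8 dpg stump, against 63.5, 11.2, 4 and 9.4 in the 0 h stump, and AT5G51470 differed by 4.49 ± 0.47. GH3.17 (AT1G28130), of the same family, had 1604, 1611 and 1464 in the 8 dpg stump and 208, 228, 248 and 142 in the 0 h stump (2.76 ± 0.27, adjusted p = 8.53e-09). None of these genes overlapped between the groups. Of 19 named auxin response genes 3 rose and 0 fell, beside 3.64% and 3.16% of all probe sets, the third being IAA20 (1.37 ± 0.37), whose adjusted p reached 0.0938 without the second 8 dpg stump array. The median of the list was -0.29, beside -0.17 over all probe sets, and turned to 0.13 without the 4 arrays of high median signal.

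The remaining genes of the 15 with the largest rises were of several kinds. The cell wall gene GH9B6 (glycosyl hydrolase family 9, the family of plant endoglucanases) rose by 4.66 ± 0.49 and the serine carboxypeptidase-like gene scpl48 by 4.33 ± 0.39. COR47 (AT1G20440), a dehydrin that accumulates under cold and drought, had 4827, 5650 and 7331 in the 8 dpg stump, against 177, 668, 426 and 91.8 in the 0 h stump. Its arrays did not overlap between the groups, and the difference was 4.28 ± 0.61 (adjusted p = 8.18e-06). The LEA-related genes AT5G60520, AT5G60530 and AT4G27400 rose by 4.16, 4.04 and 3.98. The class III peroxidase gene AT2G43480 rose by 4.08 and the alpha/beta hydrolase gene AT3G55180 by 3.98.

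The deepest fall was that of the class III peroxidase gene AT4G30170, from a family of secreted enzymes that act on cell walls. Its signals were 25.2, 10.1 and 17.3 in the 8 dpg stump, against 370, 4577, 3255 and 1115 in the 0 h stump. The 0 h arrays varied widely among themselves, yet the lowest of them exceeded every 8 dpg stump array. The difference was -5.05 ± 0.69 (adjusted p = 3.64e-06). AT2G18980, of the same family, differed by -3.53 ± 0.57. SIM (AT5G04470) restrains the cyclin-dependent kinases and thereby favours endoreduplication, the copying of DNA without division. It had 9.5, 3.8 and 37.9 in the 8 dpg stump and 1449, 1806, 342 and 334 in the 0 h stump (-4.05 ± 0.54, adjusted p = 2.72e-06). Every 0 h array lay well above every 8 dpg stump array, although the 0 h arrays themselves fell into a higher and a lower pair.

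Genes of the cytoskeleton, of secreted proteins and of the cell wall were also among the falls. The beta-tubulin gene TUB1 (AT1G75780) had 4.4, 36.7 and 46.9 in the 8 dpg stump, against 541, 1972, 565 and 468 in the 0 h stump (-3.72 ± 0.45, adjusted p = 3.85e-07). TUB5 (AT1G20010), another beta-tubulin gene, had 210, 206 and 276 in the 8 dpg stump, against 423, 1575, 2326 and 1135 in the 0 h stump (-2.19 ± 0.36, adjusted p = 7.54e-05). Neither overlapped between the groups, and the other 5 of 7 named tubulin genes did not pass. The subtilase gene SBT4.12 (AT5G59090), for a secreted protease, had 40.7, 30.2 and 26.3 in the 8 dpg stump, against 1293, 1747, 830.2 and 846 in the 0 h stump. Its difference of -4.17 ± 0.46 (adjusted p = 8.47e-08) came with tight values on both sides. Also among the 15 deepest falls were AT2G14900 of the gibberellin-regulated family (-4.20), the acid phosphatase gene AT1G04040 (-4.07) and AT1G57590, for an enzyme that removes acetyl groups from pectin (-3.83). The others were the pectin methylesterase gene AT5G51500 (-3.23), the lipid-transfer type gene AT2G45180 (-3.58), the defensin gene LCR68 (-3.21), the carrier gene OCT5 (-3.39), AT1G62480 (-4.41), AT5G62330 (-3.77) and AT1G67330 (-3.64).

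All 30 of these genes had groups that did not overlap, which their choice by size nearly fixes (6.80% of all probe sets were called), and all 30 kept the call under each alternative tried, including each array left out. They were selected for size, so their stability says nothing of the other calls.

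**Figure D1:**
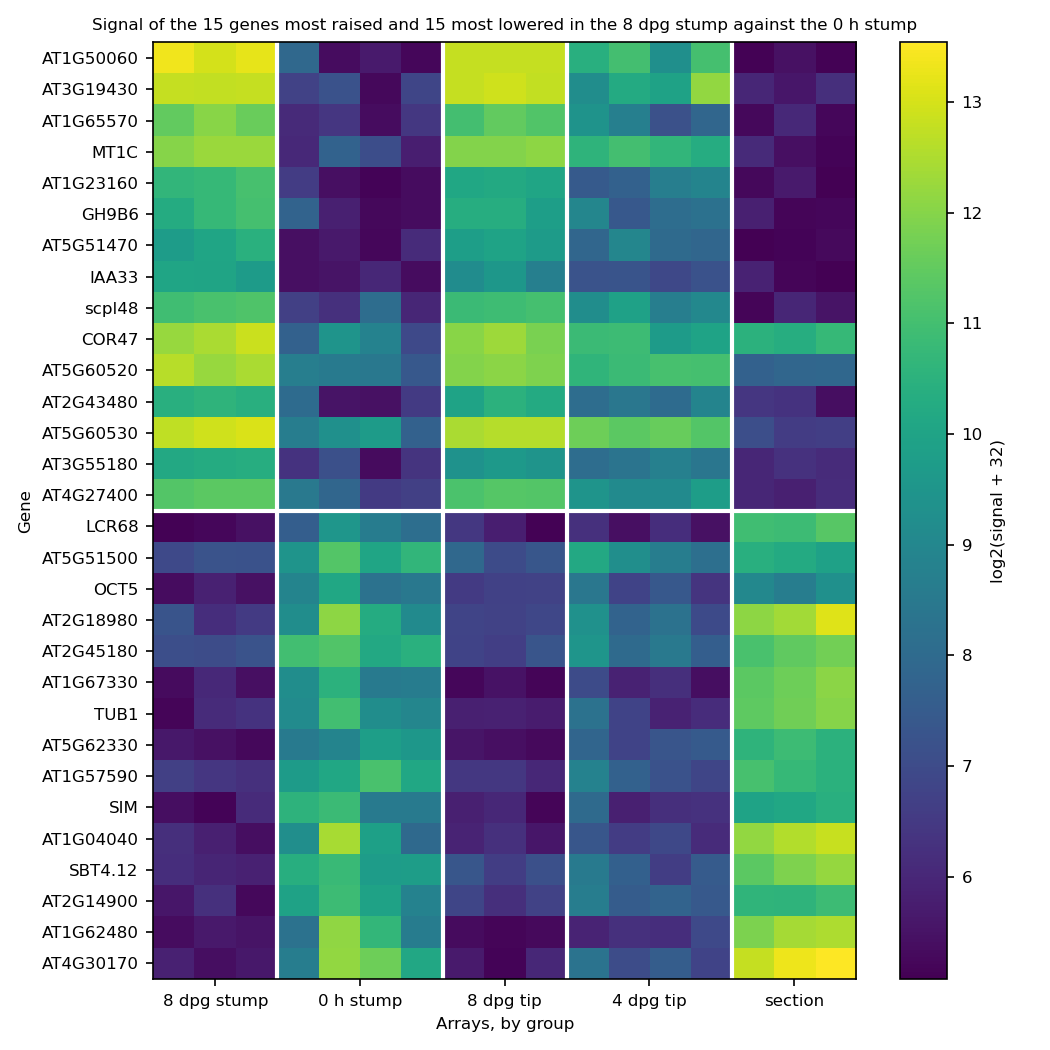
Colour gives log2(signal + 32) of the 15 genes with the largest rise (upper block) and the 15 with the deepest fall (lower block) in the 8 dpg stump against the 0 h stump; each column is an array, grouped as 8 dpg stump, 0 h stump, 8 dpg tip, 4 dpg tip and section. The columns of the 8 dpg stump resemble those of the 8 dpg tip, with 28 of the 30 genes within 1 log2 unit of it, while the 0 h stump shares its high block with the section.

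The 8 dpg stump was next compared with the intact 8 dpg tip, the tissue that the design text names as the endpoint of regeneration. In the fit over all groups 0 of 22746 probe sets differed, 0% by the rule above, and the smallest adjusted p was 0.72. At an unadjusted p under 0.05 stood 238 probe sets, 1.05%. The difference was smaller than 1 log2 unit for 22692 probe sets and reached 1 for 54, between -1.53 and 2.30. For comparison, 2516 probe sets differed by 1 or more from the 0 h stump. A result of 0 does not show that the tissues are alike. The median half-width of the 95% interval was 0.77, and the interval lay wholly inside -1 to 1 for 12925 probe sets, 56.8%. Of the 1547 probe sets that differed from the 0 h stump, 1528 were within 1 of the 8 dpg tip, and 707 had their interval inside these limits.

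The likeness of the tissues was also read from correlations between arrays. Each 8 dpg stump array correlated with the 8 dpg tip arrays at 0.964 to 0.975, which overlaps the range of 0.969 to 0.976 among the 8 dpg stump arrays themselves. The range was 0.885 to 0.950 with the 4 dpg tip, 0.781 to 0.907 with the 0 h stump, 0.840 to 0.924 with the 22 h stump and 0.819 to 0.844 with the section. These are correlations across probe sets, which are not independent replicates, and the 0 h stump arrays correlated less among themselves as well. All 6 arrays labelled 8 dpg stood close together, and array weights estimated from the residuals were 1.70 to 2.93 for them against 0.22 to 0.68 for the 0 h stump. The labels name no batch, so labelled age and any shared handling of these 6 arrays cannot be told apart.

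**Figure D2:**
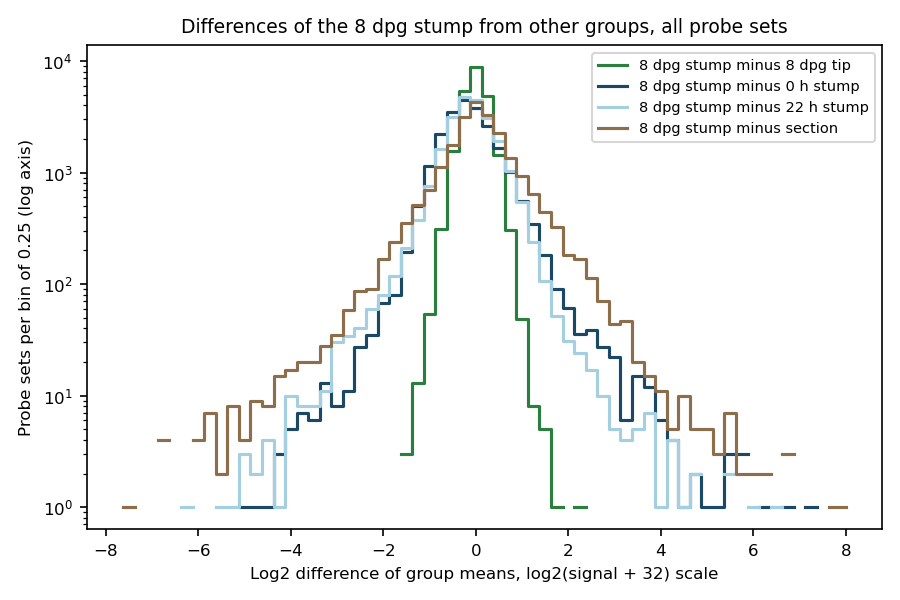
Number of probe sets (log axis) per bin of 0.25 against the log2 difference between the 8 dpg stump and the 8 dpg tip, 0 h stump, 22 h stump or section. Differences from the 8 dpg tip end at -1.53 and 2.30, whereas those from the 0 h stump reach -5.05 and 7.14.

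The spread used above comes from all 30 arrays, many of them noisier than those of 8 dpg. A fit of the 6 arrays alone called 15 probe sets, 10 higher and 5 lower in the 8 dpg stump, and had 12.2% of probe sets at an unadjusted p under 0.05. Weighting the arrays in the full fit called 39, and 12 probe sets were called both ways. The 8 of the 15 with a single gene name are listed here after their values were seen, and each was higher in the 8 dpg stump. AT2G38870, a serine protease inhibitor gene of the potato inhibitor I family, had 575, 438 and 438 in the 8 dpg stump and 183, 119 and 148 in the 8 dpg tip. The difference was 1.51 ± 0.17 (adjusted p = 0.0129 in the fit of 6 arrays). AT5G22580, for a protein with a stress-responsive barrel domain, had 958, 738 and 1014 in the 8 dpg stump and 366, 299 and 509 in the 8 dpg tip (1.16 ± 0.18, adjusted p = 0.039). In both genes every 8 dpg stump array was above every 8 dpg tip array.

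The jacalin lectin gene JAL33 (AT3G16450) had 2927, 2684 and 2784 in the 8 dpg stump and 1284, 1360 and 1488 in the 8 dpg tip (1.01 ± 0.10, adjusted p = 0.00723 in the fit of 6 arrays). The TRAF-like gene AT1G65370 had 522, 495 and 496 in the 8 dpg stump, against 193, 179 and 220.0 in the 8 dpg tip (1.23 ± 0.12). AT1G50720, of the stigma-specific Stig1 family, differed by 1.38 ± 0.15. The terpene synthase type gene AT3G32030 differed by 1.34, AT5G47050 by 1.05 and AT1G17490 by 1.05. The differences lay between 1.01 and 1.51, and none passed in the fit over all groups, where the adjusted p of all 8 was 1.

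The age labels were then examined by asking whether 8 dpg and 4 dpg differed in the same way in the stump as in the tip. The test took the difference 8 dpg stump minus 0 h stump, less the difference 8 dpg tip minus 4 dpg tip. It called 43 probe sets, 0.189%, of which 31 (0.136%) were higher and 12 (0.0528%) lower, and 1473 had an unadjusted p under 0.05. Each of the 43 had also changed in the same direction between the 8 dpg stump and the 0 h stump. Between the 8 dpg tip and the 4 dpg tip 101 probe sets, 0.444%, differed, 64 higher and 37 lower, and a pseudocount of 1 gave 37 and 60. Fewer probe sets thus separated the tips of these ages than the stumps, where 1547 did, and the 43 are those at which the 2 differences were themselves found to differ. The same quantity is 8 dpg stump minus 8 dpg tip, less 0 h stump minus 4 dpg tip. The first of these parts had 0 calls, while 494 probe sets (2.17%) differed between the 4 dpg tip and the 0 h stump. A call in this test is therefore not by itself a change with age in the stump.

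Among the named genes, AT1G50060 had the highest value in this test, 4.78 ± 0.83 (adjusted p = 0.00326, and 0.0542 with a pseudocount of 1). Its signals averaged 7088 ± 74.5 in the 8 dpg tip (SD, n = 3) and were 1332, 2014, 590 and 2082 in the 4 dpg tip, so the gene was already bright in the younger tip. AT3G19430 gave 3.86 ± 0.70, AT5G47050 3.80 ± 0.47 and the subtilase gene SBT4.12 -3.63 ± 0.65, and these 3 passed with each array left out. AT5G47050, a gene of the S-ribonuclease binding protein family, had 798, 961 and 771 in the 8 dpg stump and 58.7, 27.5, 73.5 and 8.1 in the 0 h stump. In the tip it had 354, 450 and 369 at 8 dpg, against 400.2, 536, 410.0 and 404 at 4 dpg. The stump arrays differed widely while the tip arrays overlapped, and of these groups only the 0 h stump was low.

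AT2G38870 had 575, 438 and 438 in the 8 dpg stump, against 75.9, 407, 54.4 and 17.2 in the 0 h stump. In the tip it had 183, 119 and 148 at 8 dpg, against 1175, 435, 278 and 453 at 4 dpg, so the older tissue was higher in the stump and lower in the tip. The test gave 3.69 ± 0.65 (adjusted p = 0.00393, and 0.0664 in a fit of the 4 groups alone). The leucine-rich repeat receptor kinase gene AT3G28040 gave -2.24 ± 0.39 (adjusted p = 0.00326, and 0.0803 in a fit of the 4 groups alone). AT1G23160 (3.25), the jacalin lectin gene AT1G52070 (3.14), OCT5 (-2.80), AT1G57590 (-2.48) and the heat shock protein 70 family gene AT4G16660 (-1.59) also passed. Each of these 5 lost its call when any of 6 to 11 of the 14 arrays was left out, with adjusted p up to 0.108, 0.103, 0.0977, 0.103 and 0.143 in the same order. AT1G52070 had 11436, 9902 and 11528 in the 8 dpg stump and 755, 901, 893 and 714 in the 0 h stump, without overlap.

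The position of the tissue along the root was read from probe sets that other groups define. Between the 4 dpg tip and the section, 2251 probe sets (9.9%) were higher in the tip and 1633 (7.18%) lower. This contrast uses no array labelled 8 dpg and none of the 0 h stump. Because the section's titles state no age, any difference of age in sets defined against it cannot be told apart from position. The mean log2(signal + 32) of the tip-high set was 8.68 to 8.69 on the 8 dpg stump arrays and 7.98 to 8.31 on the 0 h stump arrays. It was 8.68 to 8.69 on the 8 dpg tip arrays too. The mean of the section-high set was 7.81 to 7.83 in the 8 dpg stump, 8.20 to 8.74 in the 0 h stump and 7.83 to 7.87 in the 8 dpg tip. On both sets the 8 dpg stump lay with the tips, while the 0 h stump lay between tips and section. Of the tip-high set, 424 had risen in the 8 dpg stump against the 0 h stump and 19 had fallen, or 18.8% and 0.844% of the set. Those 424 made up 51.2% of all risen probe sets. Of the section-high set 357 had fallen and 21 had risen, or 21.9% and 1.29% of the set. Over all probe sets 3.64% had risen and 3.16% had fallen.

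**Figure D3:**
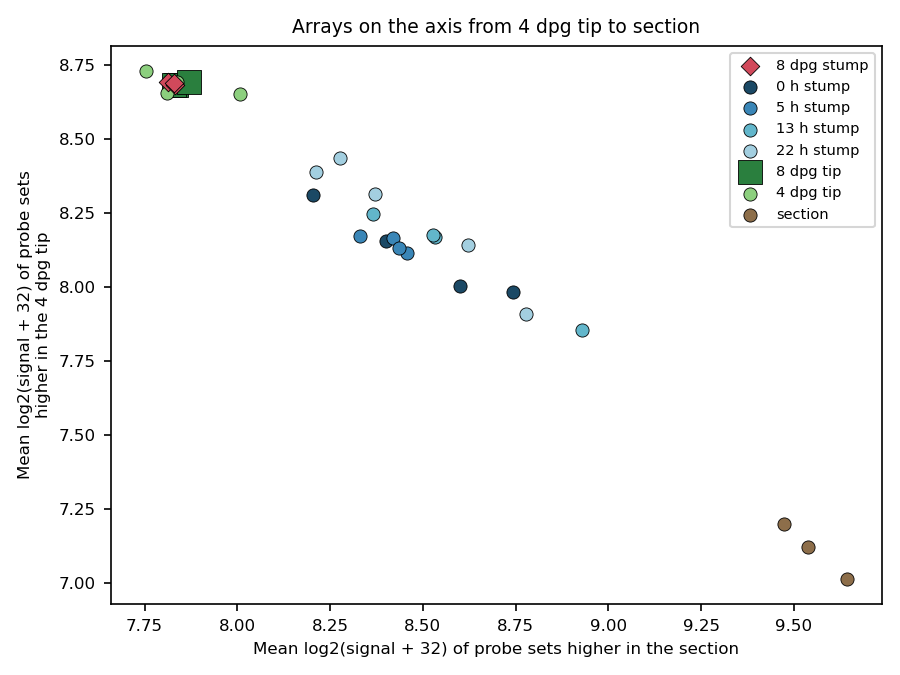
Each point is an array, placed by the mean log2(signal + 32) of the 1633 probe sets higher in the section (x axis) and of the 2251 higher in the 4 dpg tip (y axis). The 3 diamonds of the 8 dpg stump lie among the tips at 8.68 to 8.69 on the y axis, and the 0 h stump arrays at 7.98 to 8.31; the 4 dpg tip and section define the axis, so their own places are no result.

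With the 8 dpg tip in place of the 4 dpg tip, the tip-high set of 2258 probe sets (9.93%) averaged 8.96 to 8.97 in the 8 dpg stump and 7.96 to 8.29 in the 0 h stump. Of this set 593 had risen and 1 had fallen, 26.3% of the set against 3.64% of all probe sets for the risen. The section-high set of 1668 (7.33%) averaged 7.55 to 7.56 in the 8 dpg stump and 8.16 to 8.72 in the 0 h stump, with 450 fallen and 1 risen, 27.0% of the set against 3.16% of all probe sets for the fallen. Set directly against the section, the 8 dpg stump differed at 4054 probe sets, 17.8%, with 2274 higher and 1780 lower, and centring on array medians turned this split to 1807 and 2102. In several gene lists the share higher than in the section exceeded that of all probe sets. Of 8 named mitosis genes 7 were higher than in the section and 0 lower, of 114 cytosolic ribosomal protein genes 36 and 0, and of 6 ribosome biogenesis genes 4 and 0, beside 10% of all probe sets called higher. Of 5 heat shock genes 3 were higher and 0 lower, of 13 autophagy and senescence genes 5 and 1, and of 19 auxin response genes 5 and 0. Other lists went the other way. Of 55 class III peroxidases 2 were higher than in the section and 13 lower. Of 10 xyloglucan endotransglucosylase genes, for cell wall enzymes, the counts were 0 and 4, and of 7 tubulin genes 0 and 3. Of all 22746 probe sets, 1780 were called lower.

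The age of the tissue was read in the same way from the 101 probe sets that differed between the tips. The 64 (0.281%) that were higher in the 8 dpg tip averaged 9.59 to 9.69 in the 8 dpg stump and 7.08 to 7.36 in the 0 h stump. In the tips they averaged 9.48 to 9.64 at 8 dpg and 7.64 to 7.98 at 4 dpg. Of the 64, 55 had risen in the 8 dpg stump against the 0 h stump, beside 3.64% of all probe sets. The 37 (0.163%) that were lower in the 8 dpg tip averaged 7.03 to 7.12 in the 8 dpg stump and 8.84 to 9.50 in the 0 h stump, and 30 of them had fallen. The tips define these sets, so their own levels are no result. The 8 dpg stump was near the 8 dpg tip in both sets and outside the range of all arrays of 4 dpg seedlings. Both sets also differed by position. Of the 64, 46 were higher in the 8 dpg stump than in the section and 0 lower, beside 10% of all probe sets called higher. Of the 37, 27 were lower than in the section and 2 higher. On the first set the 0 h stump also lay below the 4 dpg tip. Whether these sets reflect age, position along the root or the shared handling named above was not tested.

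Genes that rise soon after the cut gave a further reading. At 5 h, 196 probe sets exceeded both the 4 dpg tip and the section, out of 2.45% and 6.38% of probe sets that exceeded each. At 22 h 192 did, out of 2.48% and 7.43%. The 5 h set averaged 7.09 to 7.16 in the 8 dpg stump and 6.96 to 7.38 in the 0 h stump, which overlap. It averaged 6.97 to 7.01 in the 8 dpg tip and 8.77 to 9.18 in the 5 h stump that defined it. The 22 h set averaged 6.58 to 6.70 in the 8 dpg stump, 6.46 to 7.20 in the 0 h stump, 6.50 to 6.57 in the 8 dpg tip and 8.09 to 9.05 in the 22 h stump. As sets, these transcripts were thus near the levels of uncut tissue in the 8 dpg stump, with all 3 arrays just above the 3 arrays of the 8 dpg tip in both sets. Against the 0 h stump, 20 of the 5 h set had risen and 16 had fallen (10.2% and 8.16% of the set), and of the 22 h set 16 and 17 (8.33% and 8.85%), beside 3.64% and 3.16% of all probe sets.

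**Figure D4:**
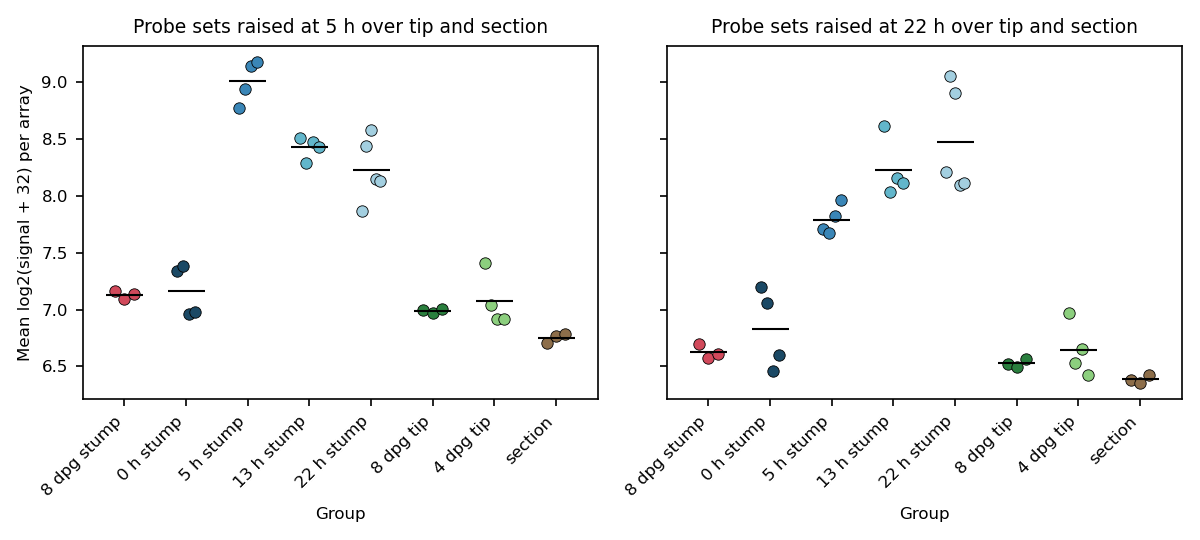
Mean log2(signal + 32) per array of the 196 probe sets raised at 5 h (left) and the 192 raised at 22 h (right), by group, with bars at group means. The 8 dpg stump lies at 7.09 to 7.16 and 6.58 to 6.70, near the 0 h stump and both tips and well below the 5, 13 and 22 h stumps.

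Within these sets some genes were raised over the 0 h stump. AT5G22580 had 958, 738 and 1014 in the 8 dpg stump and 210.1, 139, 30.0 and 31.3 in the 0 h stump (3.04 ± 0.35, adjusted p = 1.71e-07). Its means were 9710 at 5 h and 2106 at 22 h, so the 8 dpg stump lay between the 0 h stump and the cut stumps, and above the 8 dpg tip as described. AT2G38870 differed from the 0 h stump by 2.10 ± 0.46 (adjusted p = 0.0023, and 0.0904 in a fit of the 7 arrays alone) and averaged 6517 at 22 h. AT4G38410, a dehydrin family gene, had 852, 909 and 1037 in the 8 dpg stump and 265, 90.4, 59 and 70.3 in the 0 h stump (2.83 ± 0.42, adjusted p = 1.82e-05). With a mean of 710 in the 8 dpg tip, it was high in uncut tissue of that age as well.

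Other genes of the 5 h and 22 h sets did not pass. The peroxidase gene AT5G39580 had 12.6, 5.2 and 44.7 in the 8 dpg stump and 73.9, 125, 49.3 and 66.1 in the 0 h stump (adjusted p = 0.133). The chitinase family gene AT2G43620, AT2G22880, the expansin gene EXPA8, AT5G53880 and the defensin gene LCR69 also missed the threshold, and their signals in the 8 dpg stump were at most 40.3. AT5G61890, an ERF-type transcription factor gene, had 43, 12.2 and 40.2 in the 8 dpg stump and 292, 9.9, 55.7 and 27.1 in the 0 h stump (adjusted p = 0.505). Of 6 named wound, jasmonate and ethylene genes 0 had risen or fallen, beside 6.80% of all probe sets, a list too short to read as a result.

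**Figure D5:**
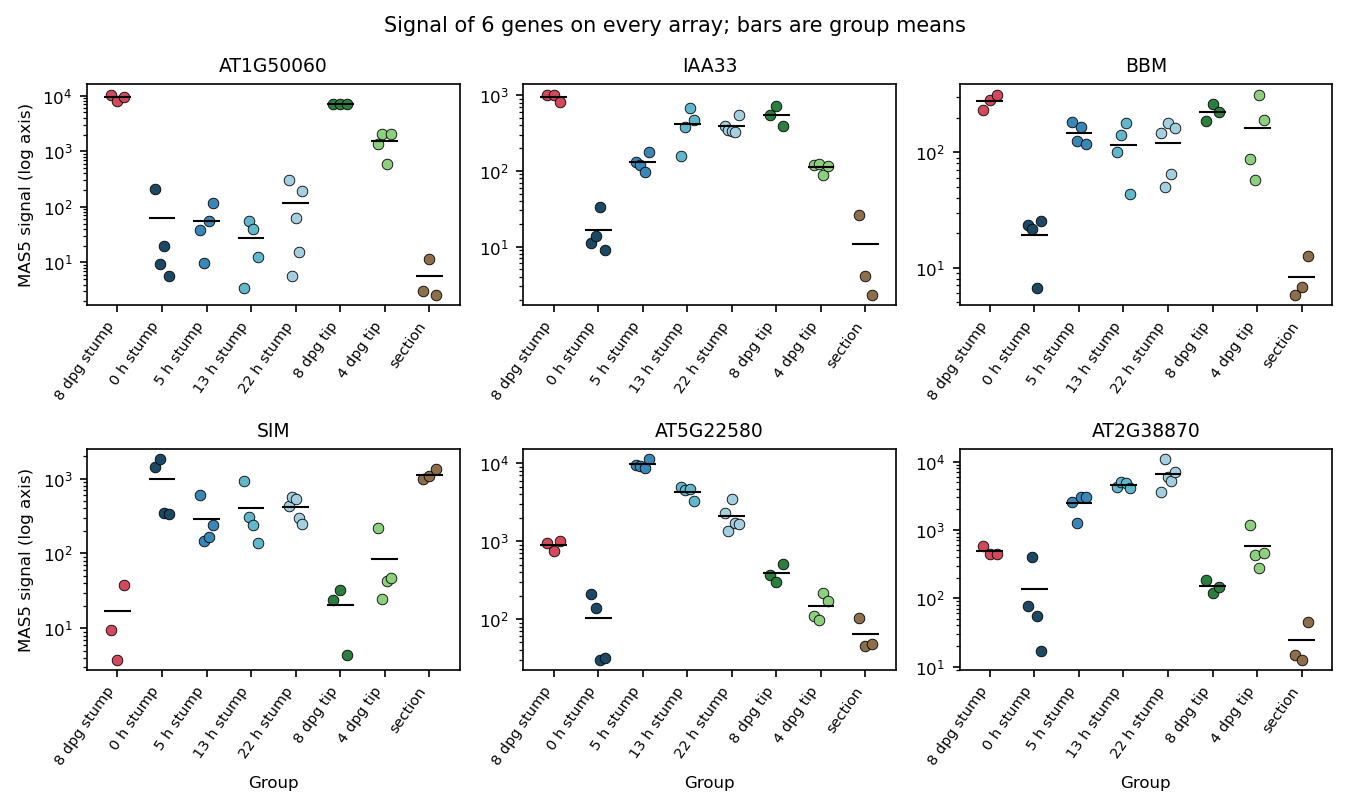
MAS5 signal (log axis) of AT1G50060, IAA33, BBM, SIM, AT5G22580 and AT2G38870 on every array by group, with bars at group means. AT1G50060 and SIM separate the 8 dpg stump and tips from the other tissue, BBM is lowest in the 0 h stump and section, and AT5G22580 and AT2G38870 peak in the cut stumps.

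Set against the 22 h stump, the 8 dpg stump differed at 1372 probe sets, 6.03%, of which 536 were higher and 836 lower. Centring on array medians turned this split to 935 and 527. The count was 841 to 886 when any of the 3 arrays of the 8 dpg stump was left out. Class III peroxidases were the list with the most changes: of 55 named genes 3 were higher and 19 lower than at 22 h, beside 2.36% and 3.68% of all probe sets. IAA33 was higher than at 22 h by 1.23 ± 0.31. AT2G38870 differed from the 22 h stump by -3.59 ± 0.44. Against the 5 h stump 1566 probe sets differed, 6.88%, with 847 higher (3.72%) and 719 lower (3.16%). Quantile normalization turned this split to 654 and 681. Of the 5 h set 138 were lower than at 5 h, and of the 22 h set 146 were lower than at 22 h, counts that the definition of the sets favours.

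Among regulators of root patterning, 4 of 22 listed genes had a named probe set. BBM (AT5G17430), an AP2-type transcription factor of the PLETHORA group that maintains the root meristem, had 235, 285 and 317 in the 8 dpg stump, against 23.3, 21.8, 6.6 and 25.5 in the 0 h stump. The groups were far apart, with a difference of 2.61 ± 0.39 (adjusted p = 2.02e-05). It had 185, 264 and 222 in the 8 dpg tip and a mean of 8.37 in the section. The 22 h stump spanned 50.5 to 180.1, below each 8 dpg stump array, but the difference of 1.11 ± 0.38 missed the threshold (adjusted p = 0.0671). CLE40, for a peptide that restrains the columella stem cells, had 19.8, 3.1 and 11.6 in the 8 dpg stump and 141, 96.9, 28.7 and 42.7 in the 0 h stump. Its difference of -1.22 ± 0.45 did not pass (adjusted p = 0.0901), although the groups did not overlap. JKD, a zinc finger gene of ground tissue, differed by -0.92 ± 0.47 (adjusted p = 0.235).

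All 8 named mitosis genes had positive differences from the 0 h stump, with a median of 0.80, and 3 rose, beside 3.64% of all probe sets. BUBR1 (AT2G33560), of the spindle checkpoint, had 351, 300.4 and 338 in the 8 dpg stump and 29.3, 17.9, 152 and 194 in the 0 h stump (1.76 ± 0.39, adjusted p = 0.00252). BUB3.1 (AT3G19590), of the same checkpoint, had 1117, 1038 and 1202 in the 8 dpg stump and 270, 126, 527 and 730 in the 0 h stump (1.61 ± 0.36). Neither overlapped, but their 0 h values fall apart by array. Without the 4 arrays of high median signal, which include 0 h arrays 1 and 2, both differed by 0.82 and missed the threshold (adjusted p = 0.164 and 0.0584). The Aurora kinase gene AUR1 rose by 1.01 ± 0.32 and lost its call without each of 6 single arrays, with adjusted p up to 0.177. AUR2 differed by 0.81 ± 0.27 (adjusted p = 0.0576). Of 7 named histone genes 0 passed.

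Other lists held a few changed members each, to be read beside the 3.64% of all probe sets that rose and the 3.16% that fell. Of 55 class III peroxidases 4 rose and 8 fell, among them AT5G24070, which rose by 2.32 ± 0.43. The list's median of -0.64 lay below the -0.17 of all probe sets. Without the 4 arrays of high median signal these medians were -0.18 and -0.03. Autophagy serves the recycling of cell contents. Of 13 autophagy and senescence genes 3 rose and 0 fell, beside 3.64% and 3.16% of all probe sets. The 3 belong to the ATG8 group that coats the autophagosome. ATG8B had 333, 445 and 291 in the 8 dpg stump and 197, 96.1, 6.2 and 14.1 in the 0 h stump (2.18 ± 0.47, adjusted p = 0.00212). Its call was lost in a fit of the 7 arrays alone (adjusted p = 0.0725). ATG8E (1.63 ± 0.49) and ATG8G (1.00 ± 0.26) lost theirs when single arrays were left out, with adjusted p up to 0.131 and 0.0639.

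Of 8 LEA and dehydrin genes listed by symbol, COR47 rose and LTI30 fell. LTI30 (AT3G50970), a dehydrin like COR47, had 102, 147 and 106 in the 8 dpg stump, against 455, 1095, 1181 and 761 in the 0 h stump (-2.52 ± 0.54, adjusted p = 0.00217). The pair thus moved in opposite directions without overlap in either. Of 10 xyloglucan endotransglucosylase genes, whose enzymes remodel the cell wall, EXGT-A3 rose by 1.46 ± 0.29 and XTH16 fell by 1.84 on the log2 scale. XTH16 had 41.2, 52.5 and 61.2 in the 8 dpg stump and 142, 465, 399 and 183 in the 0 h stump, and averaged 1490 in the section (adjusted p = 0.00257, and 0.0569 with a pseudocount of 1). Of 18 expansin genes 1 rose and 2 fell, and each of the 3 lost its call when 1 or more single arrays were left out, with adjusted p up to 0.145. Of 13 glutathione transferase genes 2 rose and 1 fell, and GSTU26 and GSTF4 lost theirs in the same way. GSTU25, which kept it, had 5705, 4454 and 4752 in the 8 dpg stump and 607, 1685, 1836 and 1184 in the 0 h stump (1.99 ± 0.37). Of 5 heat shock genes 1 rose and 0 fell, and the list's median was -0.28. The gene that rose was the chaperone gene Hsp70-2 (1.87 ± 0.40). Of 114 ribosomal protein genes 1 rose and 2 fell, and of 69 plastid-encoded genes 3 and 1, shares near or under those of all probe sets. Each of these 7 lost its call when 1 or more single arrays were left out, with adjusted p up to 0.139. In the cytokinin (6 genes), cytochrome P450 (24), ribosome biogenesis (6), mitochondrion-encoded (15), pectin enzyme (7) and nitrate and phosphate transport (4) lists 0 passed. No list had a member that differed between the 8 dpg stump and the 8 dpg tip in the fit over all groups. That fit called 0 of all probe sets, so this is no separate result about the lists. JAL33, of the jacalin lectin list, was called in the fit of the 6 arrays alone, as given above.

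The 4 dpg tip and 8 dpg tip can be set beside the 8 dpg stump as differences from the same 0 h arrays, which all of these comparisons share. The counts were 1547 for the 8 dpg stump, 1377 (6.05%) for the 8 dpg tip and 494 (2.17%) for the 4 dpg tip. For AT1G50060 the differences were 7.14, 6.74 and 4.38 in that order. For IAA33 they were 4.35, 3.57 and 1.57, for SIM -4.05, -3.94 and -3.03, and for TUB1 -3.72, -3.80 and -2.81. In these 4 genes the 8 dpg stump and 8 dpg tip differed from each other by less than 1 log2 unit.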

How the data were processed

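Deposited values are intensities on a linear scale, 1 for each probe set on each array, made by the authors with MAS5 per the submitters' processing notes, which state no version in the sources used here. Signals were already scaled and were used as log2(signal + 32). A linear model of all 30 arrays, with group as its factor, was fitted by limma 3.58.1 in R 4.3.3 using trended empirical Bayes. Adjusted p-values are from it unless another fit or setting is named, corrected over the 22746 probe sets by Benjamini-Hochberg. A call needed an adjusted p under 0.05 and an absolute difference of at least 1. Counts, ranges and sets were made in Python 3.11.15 with pandas 2.3.3 and numpy 2.4.6, and plots with matplotlib 3.10.9. The number of arrays limits precision. Scanner information files hold no measurement and were not used here.

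Of the probe sets, 13513 paired with 1 gene in the platform annotation, 503 with several and 8730 were unnamed here; 13436 of the 13513 matched RefSeq (TAIR10.1, for names only). Named genes were up to 15 risen and 15 fallen with the largest difference, with 1 gene and a mean above 90.3 (the median of all signals) in the higher group, up to 4 per list with the smallest p, each patterning regulator and marker, and up to 6 per direction for the difference between stump and tip. The comparison was proposed, and the 26 gene lists and 7 marker lists drawn up, with earlier results of these data known. Alternatives were pseudocounts of 1 and 64, median centring, quantile normalization, dropping the 40% dimmest probe sets, no trend, array weights, a replicate block, only the groups compared, leaving out arrays singly and leaving out the 4 of high median. Added after seeing the data were 0 h arrays 1 and 2 or 3 and 4 alone and the 4 dpg position sets.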

Additional observations from a re-analysis of the deposited data

Results flagged for a closer look

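The 8 against 4 dpg difference in the stump was larger or smaller than that in the tip, by the test of the difference itself, for 43 probe sets. The values were 4.78 for AT1G50060, 3.86 for AT3G19430, 3.80 for AT5G47050, 3.69 for AT2G38870, 3.25 for AT1G23160 and 3.14 for AT1G52070. They were -3.63 for SBT4.12, -2.80 for OCT5, -2.48 for AT1G57590, -2.24 for AT3G28040 and -1.59 for AT4G16660.

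In some groups 1 array stood apart from the others, by its gap to the nearest array as a share of the group's range, against a limit of 0.829 for 4 arrays. The share was 0.833 for the highest 0 h stump array of AT1G50060 and 0.872 for that of TUB1. In the 4 dpg tip it was 0.84 for the lowest array of IAA33, 0.861 for the highest of AT5G51470 and 0.918 for the highest of AT5G47050. For the probe sets lower in the 8 dpg tip than the 4 dpg tip it was 0.835, in the highest 5 h stump array. Of 100 groups tested 6 stood out, and chance alone gives about 1 in 20.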

How the results depend on the processing

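The count of probe sets differing between the 8 dpg stump and the 0 h stump was 974 to 2306 when single arrays were left out, 663 in a fit of only these groups and 4641 with 0 h arrays 1 and 2 alone. For the 8 dpg stump against the 8 dpg tip it was 1 with a pseudocount of 64, 39 with array weights and 15 in a fit of only these groups. Leaving out single arrays gave 841 to 1651 against the 22 h stump. Between the tips, array weights gave 375, leaving out the 4 arrays of high median 220, and single arrays 25 to 110. The number of probe sets whose 8 against 4 dpg difference differed between stump and tip was 17 to 93 when single arrays were left out. It was 74 without the 40% dimmest probe sets, 276 with array weights, 169 without the 4 arrays of high median, and 335 and 71 with 0 h arrays 1 and 2 or 3 and 4 alone. The replicate block gave 76 there and 1862 against the 0 h stump. Same-numbered arrays of these groups deviated together with r of 0.132, -0.036 and 0.024, and differently numbered ones with r up to 0.107. With so few arrays per group, these values cannot decide whether the numbers pair the samples. Single genes kept direction and call in 2633 of 2892 combinations of gene and alternative, and 0 of these reversed. The balance of higher and lower calls did turn. With median centring it turned against the 22 h stump (935 and 527) and the section (1807 and 2102). Quantile normalization turned it against the 5 h stump (654 and 681), and a pseudocount of 1 between the tips (37 and 60). Against the 0 h stump it turned without 0 h array 3 (1024 and 1282) or 4 (980 and 1007), and with 0 h arrays 1 and 2 alone (1622 and 3019). For the difference between stump and tip it was 46 and 47 without 4 dpg tip array 1. The wide spread of the 0 h arrays, 1 pool per array and 8730 unnamed probe sets limit what could be seen. The cause of these shifts was not tested.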
